A study of Mus musculus with 19 samples.

Results

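The ADAM, ADAMTS and ADAMTS-like genes were followed in the infrarenal aorta of mice with and without an elastase-induced aneurysm. Members were all genes whose current symbol is Adam, Adamts or Adamtsl followed by a digit and that had a probe set annotated to that gene alone. This gave 54 of the 30141 genes measured, each with 1 probe set. They comprised 11 ADAM genes expressed outside the germ line, 20 ADAM genes known mainly from testis and epididymis, 18 ADAMTS genes and 5 ADAMTS-like genes. The 20 testis and epididymis ADAMs served as a background group. Adam12, Adam1a, Adam34 and Adamts2 shared their probe set with another symbol or had none of their own and were not analysed here.

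ADAMs are membrane-anchored metalloproteinases that cut the ectodomains of cytokines, receptors and adhesion molecules at the cell surface, a process called shedding. ADAMTS proteinases are secreted, carry thrombospondin type 1 repeats and act on proteoglycans, procollagens and other matrix proteins, while ADAMTS-like proteins have the repeats but no protease domain and several of them bind fibrillin microfibrils. In the arterial wall these families are known for turnover of versican and aggrecan, for leukocyte shedding events and for assembly of the microfibrils that surround elastic fibres.

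The arrays (Affymetrix Clariom D, also called MTA 1.0) each held RNA from the aorta of 1 C57BL/6J mouse, a common inbred strain, operated on at 10 weeks of age. The infrarenal segment was filled for 5 min at 120 mmHg with saline alone (sham) or with saline holding porcine pancreatic elastase at 2.5 U/mL (PPE) and was taken 7 days later. There were 5 male sham, 7 male PPE, 3 female sham and 4 female PPE aortae, and no mouse carried a transgene per the labels. PPE was compared with sham within the male and within the female cohort. Male and female arrays also differed in overall brightness, with array medians of 5.61 to 5.85 and 6.17 to 6.31 log2 units over all probe sets, so levels were not compared between the cohorts. Elastase injures the wall directly, and sham mice underwent the same clamping and infusion without it.

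Marker genes are counted here as higher or lower at a Benjamini-Hochberg adjusted p under 0.05 in limma. Of all genes 9.67% rose and 9.98% fell in males, and 2.77% and 1.45% in females. All 8 smooth muscle marker genes were measured and all 8 fell in the male cohort. Their mean per array ran from 13.39 to 14.50 log2 units in male sham and from 11.18 to 12.53 in male PPE aortae, and 7 of the 8 fell in the female cohort. Pericyte markers fell for 6 of 6 genes in males and 4 of 6 in females, and fibroblast markers for 5 of 5 measured in males and 2 of 5 in females. In females all differences of these 3 marker lists were below 0. An unadjusted limma p under 0.05 was found there for 8 of 8 smooth muscle, 5 of 6 pericyte and 5 of 5 fibroblast markers. The median fibroblast marker change was -0.82 log2 units in males and -1.04 in females. Neutrophil markers rose for 7 of 8 genes in males and 5 of 8 in females, and T and NK cell markers for 7 of 7 measured in both. Of 4 measured B and plasma cell markers, 2 rose in females and 0 were called in males, where 1 had an unadjusted limma p under 0.05. The mean of the 8 macrophage markers ran from 11.73 to 13.42 in male sham and from 13.66 to 14.53 in male PPE aortae, with 6 of 8 genes higher in males and 1 of 8 in females. In females 3 of the 8 macrophage and 7 of the 8 neutrophil markers had an unadjusted limma p under 0.05. Male sham arrays 4 and 5 had the lowest macrophage means of their group, 11.73 and 12.05, and the adipocyte marker mean of male sham 4, 12.34, stood above the 8.26 to 9.53 seen in arrays 1, 2, 3 and 5. Skeletal muscle markers averaged 10.99 in female sham 1, 9.56 in female PPE 2 and 7.76 in male PPE 6, while the other arrays lay between 5.36 and 6.14. The part that these shifts have in the changes of single genes was not tested. In tissue RNA, fewer cells of a type and less RNA per cell cannot be told apart.

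In the male cohort 10 of the 54 genes changed, 2 upwards and 8 downwards, at a Benjamini-Hochberg adjusted p under 0.05 in limma. That share, 18.5%, compares with 19.6% of all genes tested, 9.67% higher and 9.98% lower. Among the 34 genes outside the testis group 9 changed (26.5%), of which 2 rose and 7 fell. Dim genes are called less often. In a fit of only the 15441 genes brighter on average than a level given below, 34.9% were called in males. That fit called 12 of the 29 members above the level. Adam8 and Adam17 rose. Adam33, Adam22, Adam39, Adamts8, Adamts10, Adamtsl3, Adamtsl4 and Adamtsl5 fell. In the female cohort 2 of the 54 passed, Adam8 upwards and Adamts10 downwards, or 3.7% against 4.22% of all genes (2.77% higher, 1.45% lower). The median change over the 54 genes was -0.08 log2 units in males and -0.06 in females, beside 0.01 and -0.02 over all genes tested. Without male sham 4 and 5 and male PPE 1, arrays that stood apart in an earlier look at these data, 14 genes were called in males, beside 19.5% of all genes: Adam39 was lost, and Adam5, Adam19, Adamts6, Adamts12 and Adamts17 were gained. In females 8 were called, beside 8.14% of all genes, with Adam5, Adam10, Adam17, Adamts8, Adamtsl4 and Adamtsl5 gained.

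**Figure D1:**
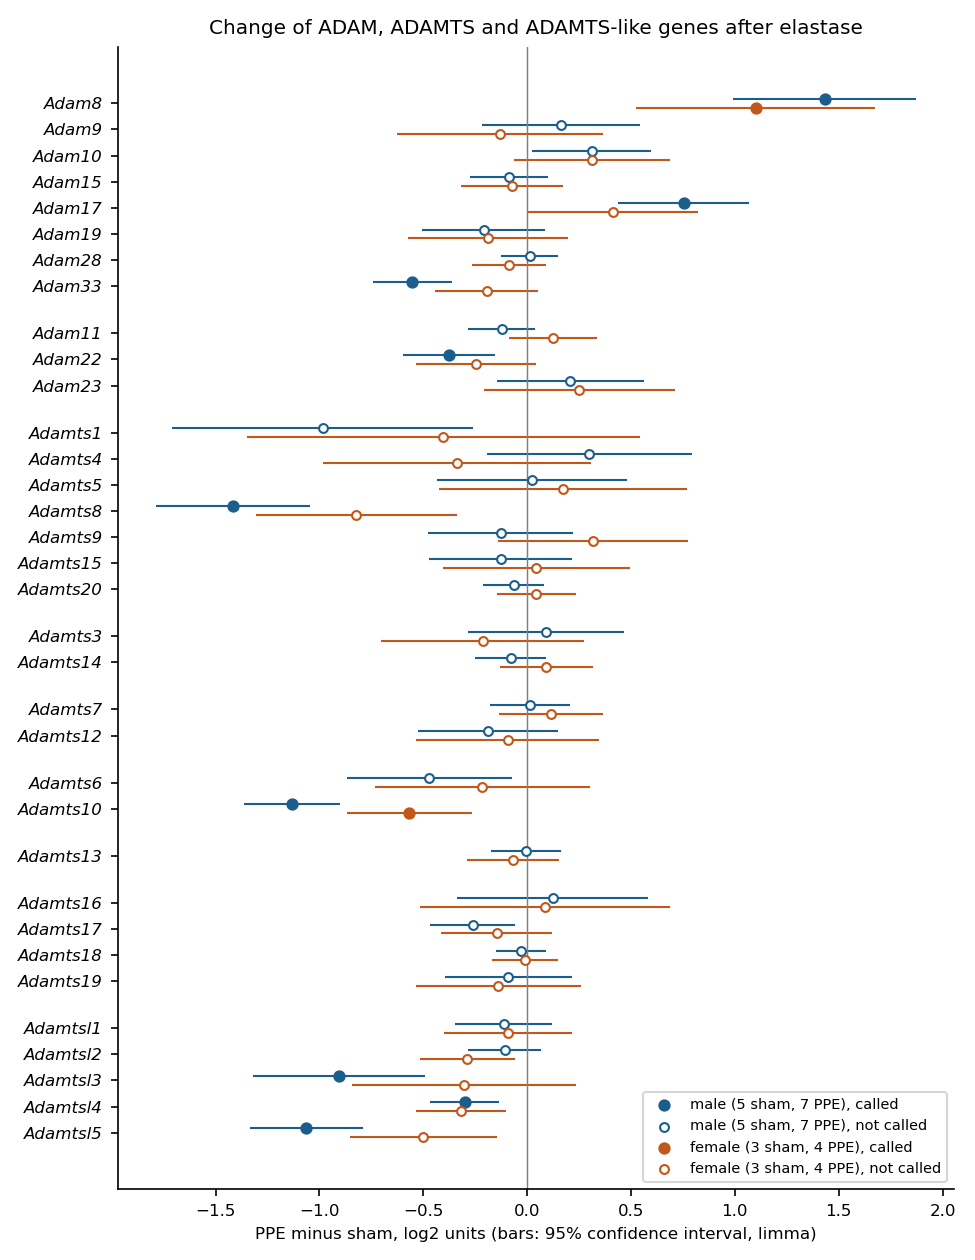
The change after elastase of each of the 34 genes outside the testis group (PPE minus sham, log2 units; bars, 95% confidence intervals from limma) is plotted by role group for males (blue) and females (orange), with filled points for an adjusted p under 0.05. Adam8 lies farthest to the right in both cohorts, at 1.43 and 1.10, and Adamts8 farthest to the left in both, at -1.42 and -0.82.

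Groups of arrays were also compared by their ranges alone. Sham and PPE values did not overlap for 8 of the 54 genes in males (14.8%, beside 9.37% of all genes), 2 with PPE above and 6 with PPE below. In females this held for 9 of 54 (16.7%, beside 19.8% of all genes), 3 above (Adam8, Adam10 and Adam17) and 6 below (Adam5, Adam9, Adamts8, Adamts10, Adamtsl4 and Adamtsl5), with 3 and 4 arrays per group.

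Among the 8 ADAM proteinases of somatic tissues, 2 rose and 1 fell in males and 1 rose in females. Of all genes 9.67% rose and 9.98% fell in males, and 2.77% rose in females. Adam8 encodes a sheddase known from leukocytes (chromosome 7, 139978932 to 139995207, GRCm38). The male sham aortae read 8.50, 9.19, 9.16, 8.25 and 8.25 log2 units, and the male PPE aortae 9.65 to 10.39 with a median of 10.09. The female sham aortae read 9.38, 8.93 and 8.96, and the female PPE aortae 10.50, 10.73, 9.94 and 9.59. Every PPE aorta lay above every sham aorta of its cohort. The rise was 1.43 ± 0.21 log2 units in males (SE, 2.70-fold, limma adjusted p = 7.03e-05) and 1.10 ± 0.27 in females (2.14-fold, limma adjusted p = 0.0279). The male and female rises differed by 0.33 log2 units, with a 95% interval from -0.39 to 1.06 (limma adjusted p = 0.799). Without male sham 4 and 5 and male PPE 1 the male rise was 1.16 ± 0.24 (limma adjusted p = 0.00265). The female call was lost on leaving out female PPE 1 (limma adjusted p = 0.0928), PPE 2 (0.0878), sham 2 (0.133) or sham 3 (0.102). It was also lost with median centring (0.0664) and with a fit of the female arrays alone (0.0578).

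Adam17 encodes the TNF-alpha converting enzyme, which sheds TNF and its receptors (chromosome 12, 21323509 to 21373632). Its RefSeq span overlaps that of Iah1. The male sham aortae read 11.29, 11.55, 11.50, 10.60 and 10.82 log2 units, and the male PPE aortae 11.60 to 12.12 with a median of 11.87. In females the sham aortae read 11.83, 11.78 and 11.81, and the female PPE aortae 12.37, 12.49, 11.98 and 12.03. Sham and PPE did not overlap in either cohort, and in males the gap came down to 11.55 against 11.60. The male rise was 0.75 ± 0.15 log2 units (SE, 1.69-fold, limma adjusted p = 0.00129). Male sham 4 and 5, the low arrays here, were also those with the lowest macrophage means. Without them and without male PPE 1 the male rise was 0.51 ± 0.11 (limma adjusted p = 0.00378). The female difference of 0.41 ± 0.20 missed the threshold (limma adjusted p = 0.342). It passed in 1 of 28 alternatives, when those 3 male arrays were left out (0.0463).

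Adam33, known from mesenchymal cells such as smooth muscle and fibroblasts, fell in males (chromosome 2, 131050819 to 131063814). The male sham aortae read 7.05, 7.12, 6.85, 7.28 and 7.37 log2 units, and the male PPE aortae 6.42 to 6.79 with a median of 6.58. The female sham aortae read 7.26, 7.43 and 7.45, and the female PPE aortae 6.98, 7.28, 7.22 and 7.26. The male groups did not overlap, while the female groups did, with 3 PPE aortae at 7.22 to 7.28 beside a lowest sham value of 7.26. The male fall was -0.55 ± 0.09 log2 units (SE, 1.47-fold, limma adjusted p = 0.000205). The female difference was -0.20 ± 0.12 (limma adjusted p = 0.512). The responses differed by -0.36 log2 units (95% interval -0.67 to -0.05), which did not pass adjustment over all genes (limma adjusted p = 0.402).

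The other 5 somatic ADAM proteinases were not called in either cohort. Adam10, the sheddase of Notch, had the lowest p of them in males, with a difference of 0.31 ± 0.14 log2 units (limma adjusted p = 0.134), and the same 0.31 in females (0.476). The male sham aortae read 13.44, 13.64, 13.63, 12.67 and 12.97, and the male PPE aortae 13.44 to 13.81 with a median of 13.55. The 2 low sham values were again arrays 4 and 5. Adam10 was called in males without male sham 2 (limma adjusted p = 0.0498) or without male sham 3 (0.0475). Male differences of Adam9, Adam15, Adam19 and Adam28 ran from -0.21 (Adam19) to 0.16 (Adam9). Adam19 was called lower without male sham 4 (limma adjusted p = 0.0276).

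Adam8, Adam17, Adam10 and Adamtsl5 are shown by the 250 bases upstream of a RefSeq start of each (GRCm38.p6). Adam8 and Adam17 were taken because these genes rose, Adam10 as the closest relative of Adam17, and Adamtsl5 as a gene that fell. Capitals mark the GC box GGGCGG or its reverse complement CCGCCC, the letters read by Sp1-family factors. Each is written 5′ to 3′ on the strand of its gene. Adam8 is chr7:139992563-139992812 (minus strand), Adam17 chr12:21373633-21373882 (minus), Adam10 chr9:70678732-70678981 (plus) and Adamtsl5 chr10:80348449-80348698 (minus). The Adam8 and Adamtsl5 windows lie inside the span RefSeq gives the whole gene, upstream of a start within it. The Adam10 window runs past 70678944, where the RefSeq span of that gene begins. Only the Adam17 window lies wholly outside the span of its gene.
Adam8: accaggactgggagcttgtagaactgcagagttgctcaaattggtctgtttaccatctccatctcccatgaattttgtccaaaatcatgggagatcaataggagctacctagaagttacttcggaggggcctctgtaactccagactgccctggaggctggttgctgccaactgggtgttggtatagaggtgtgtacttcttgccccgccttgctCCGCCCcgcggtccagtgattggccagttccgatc
Adam17: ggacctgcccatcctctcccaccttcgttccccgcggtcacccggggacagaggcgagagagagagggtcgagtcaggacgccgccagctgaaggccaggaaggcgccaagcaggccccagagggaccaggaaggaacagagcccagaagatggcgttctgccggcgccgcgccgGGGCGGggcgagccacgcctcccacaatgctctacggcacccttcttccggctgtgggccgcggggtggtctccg
Adam10: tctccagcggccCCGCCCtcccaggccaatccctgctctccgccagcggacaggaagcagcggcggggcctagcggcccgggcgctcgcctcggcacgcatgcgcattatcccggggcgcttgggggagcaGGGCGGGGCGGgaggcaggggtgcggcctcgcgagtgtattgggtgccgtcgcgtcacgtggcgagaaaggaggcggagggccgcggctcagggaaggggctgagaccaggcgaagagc
Adamtsl5: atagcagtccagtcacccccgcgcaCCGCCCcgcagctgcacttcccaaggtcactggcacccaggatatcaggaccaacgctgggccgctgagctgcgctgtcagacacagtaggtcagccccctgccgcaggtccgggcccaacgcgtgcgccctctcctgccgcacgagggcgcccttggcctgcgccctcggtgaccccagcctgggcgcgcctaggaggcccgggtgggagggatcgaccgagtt
The Adam8 window held 52.8% G or C and 6 CG dinucleotides, the same number of CG as the median of all promoters (52.4% G or C, 6 CG). Those of Adam17, Adam10 and Adamtsl5 held 70.4%, 74% and 70.8% G or C with 23, 29 and 22 CG dinucleotides. Adam10 carried 3 GC boxes, 2 of them overlapping by 1 base, and the other 3 windows carried 1 each. A promoter entry was given for 29 of the 54 genes. Searched on both strands, GGGCGG was present in 14 of the 31 windows of these genes and in 32.7% of the 32851 windows of all genes. The PU.1-type letters GAGGAAGT were found in 1 member window (Adam29) and 2.44% of all windows, and the AP-1 letters TGANTCA in 4 (Adam19, Adam20, Adam25 and Adam29) and 6.75%. The CArG box of serum response factor was found in 0 member windows and 1.47% of all windows. These counts describe letters in a window and not binding.

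Adam17 and Adam10 are the closest relatives among the somatic ADAMs, so their difference within each array was followed, a choice made after the values were seen, as for the other pairs below. The offset between the probe sets has no meaning, and only its shift was read. The difference Adam17 minus Adam10 ran from -2.15 to -2.07 log2 units in male sham and from -1.98 to -1.41 in male PPE aortae, so the groups did not overlap. The shift was 0.44 log2 units (exact two-sided permutation test, p = 0.00253, the smallest that 5 against 7 arrays allow, 0.0202 after adjustment over 8 such tests). Leaving out each male array in turn gave shifts of 0.40 to 0.50. In females the shift was 0.10 (exact permutation p = 0.514, where 0.0571 is the smallest possible). The male sham spread of this difference, an SD of 0.04, was small although both genes were low together in male sham 4 and 5.

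Adam11, Adam22 and Adam23, which lack a complete catalytic site and serve as receptors for LGI proteins at the neuronal surface, had 1 call. Adam22 fell by 0.38 log2 units in males (SE 0.11, limma adjusted p = 0.0154), with sham at 6.90 to 7.42 and PPE at 6.60 to 7.00, so the ranges overlapped. The call was lost without male sham 1 (limma adjusted p = 0.0571) and with median centring (0.067). The female difference was -0.25 (limma adjusted p = 0.454). Adam11 and Adam23 differed by -0.12 and 0.21 in males, and Adam11 was called lower without male sham 3 (limma adjusted p = 0.0487). Of the 4 LGI genes Lgi4 fell in males, by 0.28 log2 units (limma adjusted p = 0.0371), and 0 of 4 were called in females. Of all genes 9.98% fell in males.

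**Figure D2:**
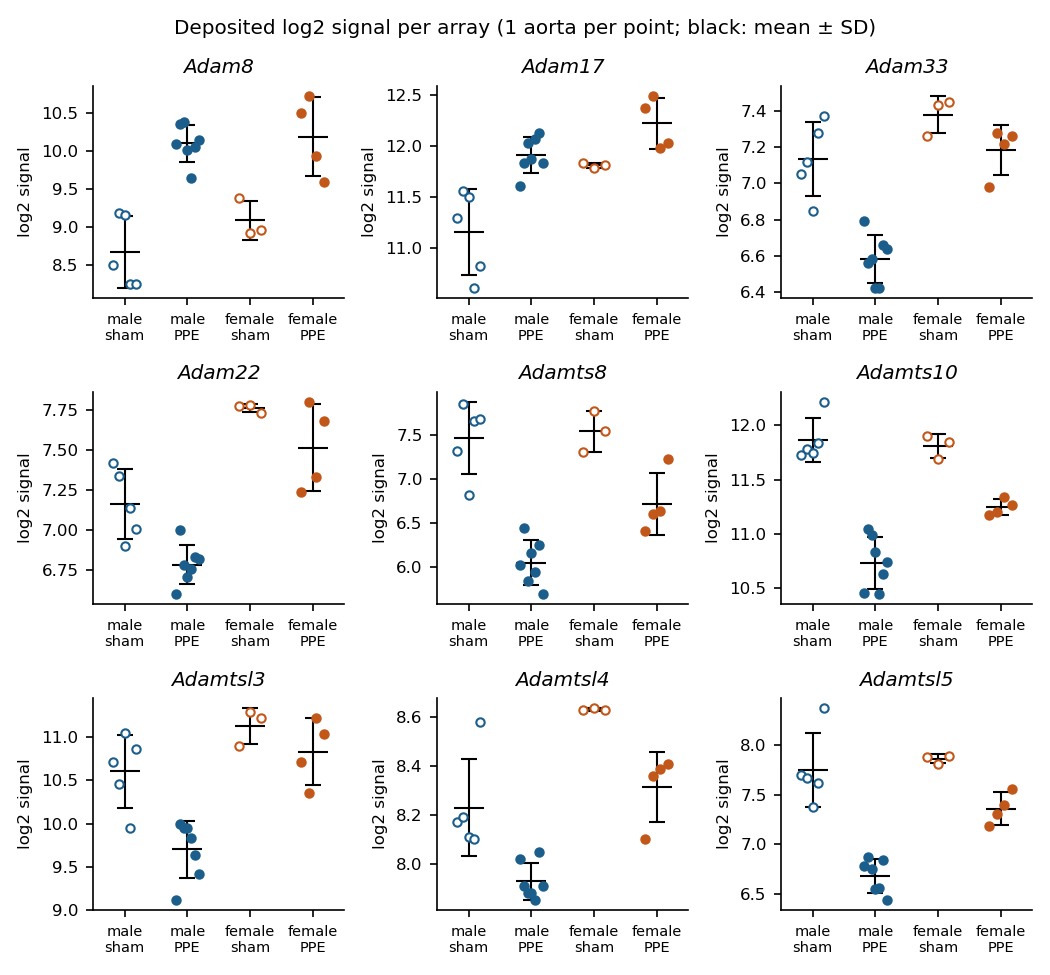
Deposited log2 signal is plotted per array (1 aorta per point; black, mean ± SD) for the 9 genes outside the testis group that were called in males. In males Adam8 and Adam17 lie higher after PPE without overlap, and Adam33, Adamts8, Adamts10, Adamtsl4 and Adamtsl5 lie lower without overlap.

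The 18 ADAMTS genes held 2 calls in males and 1 in females, all downward. Of all genes 19.6% were called in males and 4.22% in females, with 9.98% and 1.45% called lower. The ADAMTS genes as a family were thus not called more often than other genes in males. Of the 7 proteoglycanases, which cut versican and aggrecan, only Adamts8 was called in males, and 0 were called in females, where 1 had an unadjusted p under 0.05. Adamts8 (chromosome 9, 30942562 to 30963838) also carries the name METH-2 and has been described as antiangiogenic. The male sham aortae read 7.32, 7.85, 6.82, 7.66 and 7.68 log2 units, and the male PPE aortae 5.69 to 6.44 with a median of 6.02. In females the sham aortae read 7.30, 7.77 and 7.54, and the female PPE aortae 6.41, 6.60, 6.63 and 7.22. The groups did not overlap in either cohort, and female PPE 4 stood closest to its sham values. The male fall was -1.42 ± 0.18 log2 units (SE, 2.67-fold, limma adjusted p = 1.46e-05). The male PPE mean of 6.05 lay under 6.365 log2 units, the level given below for genes not expected in aorta. The size of the fall is therefore uncertain. The female difference of -0.82 ± 0.23 (1.77-fold) stood just outside the threshold (limma adjusted p = 0.0516). That female difference passed in 11 of 28 alternatives. Among these were leaving out female PPE 4 (limma adjusted p = 0.0163), quantile normalization (0.0247) and median centring (0.0396). In 17 it stayed outside the threshold, with a limma adjusted p of up to 0.248. The male response was 0.60 log2 units larger downward, with a 95% interval of the difference from -1.21 to 0.02 (limma adjusted p = 0.511).

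Adamts1, another versican-cutting member known to respond to injury and inflammation, did not pass (chromosome 16, 85793827 to 85803113). Its male sham aortae lay between 10.82 and 11.81 log2 units and its PPE aortae between 9.80 and 10.81, so the groups touched without overlapping. The difference was -0.99 ± 0.35 (limma adjusted p = 0.0533). The female sham aortae read 12.06, 12.50 and 10.14, a spread wider than the male difference. A fit of the male arrays alone, which leaves those female values out of the shared variance, gave a limma adjusted p of 0.00291. It was also called lower with quantile normalization (0.0291). Male differences of the other 5 proteoglycanases, Adamts4, Adamts5, Adamts9, Adamts15 and Adamts20, ran from -0.13 to 0.30. Adamts5, the main aggrecanase of mouse cartilage, differed by 0.02 in males and 0.17 in females. Adamts4, another aggrecanase, differed by 0.30 in males and -0.34 in females (limma adjusted p = 0.454 and 0.737).

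These genes include neighbours in the genome, Adamts8 beside Adamts15 on chromosome 9 and Adamts1 beside Adamts5 on chromosome 16. Within each array, Adamts8 minus Adamts15 shifted by -1.29 log2 units in males (exact two-sided permutation p = 0.0101, adjusted 0.0269) and by -0.87 in females (0.0571, the smallest possible, adjusted 0.0929). Adamts5 minus Adamts1 shifted by 1.01 in males (exact permutation p = 0.00758, adjusted 0.0269) and by 0.58 in females (0.343). Because the pairs were chosen after the values were seen, which the p-values do not take into account, these shifts are descriptive only. Adamts15 differed by -0.13 in males and lay at 30899155 to 30922452, upstream of Adamts8 in coordinates.

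**Figure D3:**
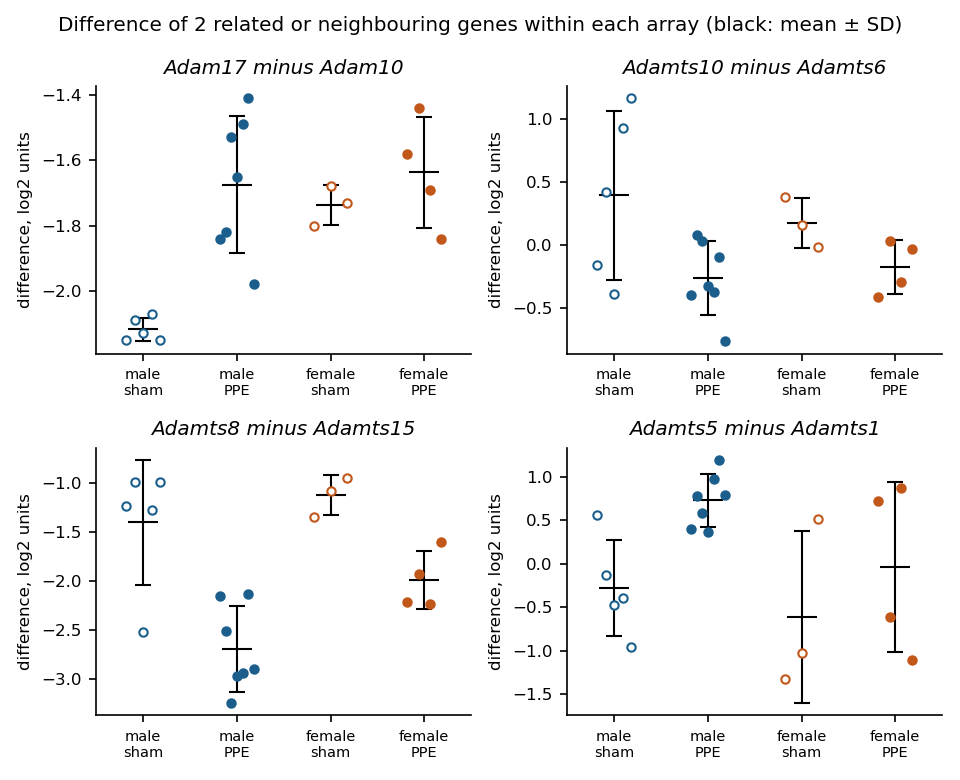
The difference between 2 related or neighbouring genes within each array (log2 units; 1 aorta per point; black, mean ± SD) is plotted for 4 pairs. Male sham and PPE points are separate for Adam17 minus Adam10, and only the position of the groups relative to each other carries meaning.

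Adamts10, a proteinase that binds fibrillin microfibrils and whose human gene is mutated in Weill-Marchesani syndrome, had the smallest p of the 54 genes in males (chromosome 17, 33523646 to 33553782). The male sham aortae read 11.73, 11.78, 11.75, 11.84 and 12.22 log2 units, and the male PPE aortae 10.44 to 11.04 with a median of 10.74. In females the sham aortae read 11.90, 11.69 and 11.85, and the female PPE aortae 11.17, 11.20, 11.34 and 11.27. In both cohorts every PPE aorta lay below every sham aorta. The fall was -1.13 ± 0.11 log2 units in males (SE, 2.19-fold, limma adjusted p = 1.62e-06) and -0.57 ± 0.14 in females (1.48-fold, limma adjusted p = 0.0303). The female call was lost on leaving out any 1 of the 7 female arrays other than PPE 4 (limma adjusted p = 0.0561 to 0.133). The male fall exceeded the female one by 0.56 log2 units (95% interval of the difference -0.94 to -0.19, unadjusted p = 0.0059 in limma), which did not pass over all genes (adjusted p = 0.207).

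Adamts6, the closest relative of Adamts10, differed by -0.47 ± 0.19 log2 units in males (limma adjusted p = 0.0959) and by -0.22 in females (0.809). It was called lower with quantile normalization (limma adjusted p = 0.0253), without male sham 4 (0.0274) and without male PPE 7 (0.0447). The within-array difference Adamts10 minus Adamts6 shifted by -0.66 in males (exact two-sided permutation p = 0.0581, adjusted 0.0929), which did not pass.

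The remaining ADAMTS groups gave 0 calls in both cohorts in limma. Among them 1 male difference and 0 female differences had an unadjusted p under 0.05. The procollagen N-proteinases Adamts3 and Adamts14 differed by 0.09 and -0.08 in males. Adamts7 and Adamts12, which cut the cartilage protein COMP, differed by 0.01 and -0.19. Adamts13, which cleaves von Willebrand factor and is made mainly in the liver, differed by -0.01. Of Adamts16 to Adamts19, Adamts17 had the lowest p in males, with -0.26 (limma adjusted p = 0.0685). It was called lower in 4 of 28 alternatives, among them leaving out male sham 4 (0.0322). Adamts16, Adamts18 and Adamts19 differed by 0.12, -0.03 and -0.09.

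Of the 5 ADAMTS-like genes 3 fell in males, and all 5 differences were below 0 in both cohorts. Beside this, 9.98% of all genes fell in males. Adamtsl5, a microfibril-associated member, had the largest male change of the group (chromosome 10, 80339793 to 80349030). Its male sham aortae read 7.70, 7.67, 7.38, 7.62 and 8.37 log2 units, and its male PPE aortae 6.44 to 6.87 with a median of 6.75. The female sham aortae read 7.88, 7.81 and 7.89, and the female PPE aortae 7.18, 7.30, 7.40 and 7.56. The groups did not overlap in either cohort. The male fall was -1.06 ± 0.13 log2 units (SE, 2.09-fold, limma adjusted p = 1.16e-05). The female difference of -0.50 ± 0.17 (limma adjusted p = 0.12) passed in 5 of 28 alternatives. Among these were quantile normalization (limma adjusted p = 0.0427), a fit of the female arrays alone (0.0243) and leaving out male sham 5 (0.019). In 23 it stayed outside the threshold, with a limma adjusted p of up to 0.2955. The interval of the difference in response ran from -1.01 to -0.12 (limma adjusted p = 0.34).

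Adamtsl3, also called punctin-2, fell by 0.91 ± 0.20 log2 units in males (SE, 1.87-fold, limma adjusted p = 0.00255; chromosome 7, 82335399 to 82614450). Its male sham aortae read 10.71, 10.46, 11.05, 9.95 and 10.86, and its male PPE aortae 9.11 to 10.00 with a median of 9.83. The ranges overlapped only through male sham 4. In females the sham aortae read 10.90, 11.29 and 11.22, and the female PPE aortae 10.71, 10.35, 11.23 and 11.04, with no call (-0.30 ± 0.26, limma adjusted p = 0.703). Adamtsl4, which binds fibrillin-1 and whose human gene is known for ectopia lentis (chromosome 3, 95676201 to 95687927), fell by 0.30 ± 0.08 in males (limma adjusted p = 0.0107). Its female difference was of like size, -0.32 ± 0.10 (limma adjusted p = 0.104), and its groups did not overlap in either cohort. That female difference passed in 4 of 28 alternatives, among them quantile normalization (limma adjusted p = 0.0298) and leaving out male sham 5 (0.025). In 24 it stayed outside the threshold, with a limma adjusted p of up to 0.3065. Adamtsl1 and Adamtsl2 differed by -0.11 each in males and by -0.09 and -0.29 in females.

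Most of the 20 testis and epididymis ADAMs varied little. Their male differences ran from -0.46 to 0.25 log2 units with a median size of 0.07, and their female differences from -0.49 to 0.30. Signals of 18 of the 20 lay under 6.365 log2 units on average, the 95th percentile of the means of 1717 olfactory and vomeronasal receptor genes, which served as a level for genes not expected in aorta. Adam4 and Adam5 lay above it, and the Adam4 span overlaps Cox16. Outside the testis group, 27 of 34 genes lay above that level. Of the 20, 1 was called in males and 0 in females in limma. An unadjusted limma p under 0.05 was found for 4 in males and 2 in females. The 1 called in males was Adam39, at -0.37 ± 0.11 (limma adjusted p = 0.0286), with overlapping groups of 4.43 to 5.08 and 4.11 to 4.54. It was below the level of the receptor genes and lost its call in 9 of 27 alternatives that kept it, among them leaving out male sham 4 (limma adjusted p = 0.0895) or male sham 5 (0.0812). Adam5 differed by -0.46 in males (limma adjusted p = 0.0526) and by -0.49 in females (0.258). In males it was called lower without male sham 4 (limma adjusted p = 6.9e-04) and in the fit of brighter genes (0.0353). Adam26a (-0.28 in males) was called lower without male sham 2, and Adam6a (0.25) was called higher without male sham 4. None of the 7 germ cell marker genes was called in either cohort, nor had any an unadjusted limma p under 0.05.

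The male and female responses were then set side by side. All male arrays were dimmer than all female arrays, and the cohorts differed in size. Sex and array set therefore cannot be told apart in these differences. Of the 54 genes 0 differed in response between the cohorts in limma, where 5 had an unadjusted p under 0.05, and 0.541% of all genes did (0.0398% with a male response above the female one and 0.501% below it). With array weights Adam6a (0.60, limma adjusted p = 0.0309) and Adamts10 (-0.54, 0.0408) differed, and with median centring Adam6a alone (0.62, 0.0422). Adam6a lies in the immunoglobulin heavy chain locus. All 10 genes called in males had the same sign in females, beside 83.2% of all genes called in males. For Adam39 the female difference was -0.01 ± 0.15 log2 units (SE), too close to zero for its sign to carry meaning. The 2 cohorts share no array. Both female calls were also called in males, as were 1134 of all 1273 genes called in females, with the same sign.

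**Figure D4:**
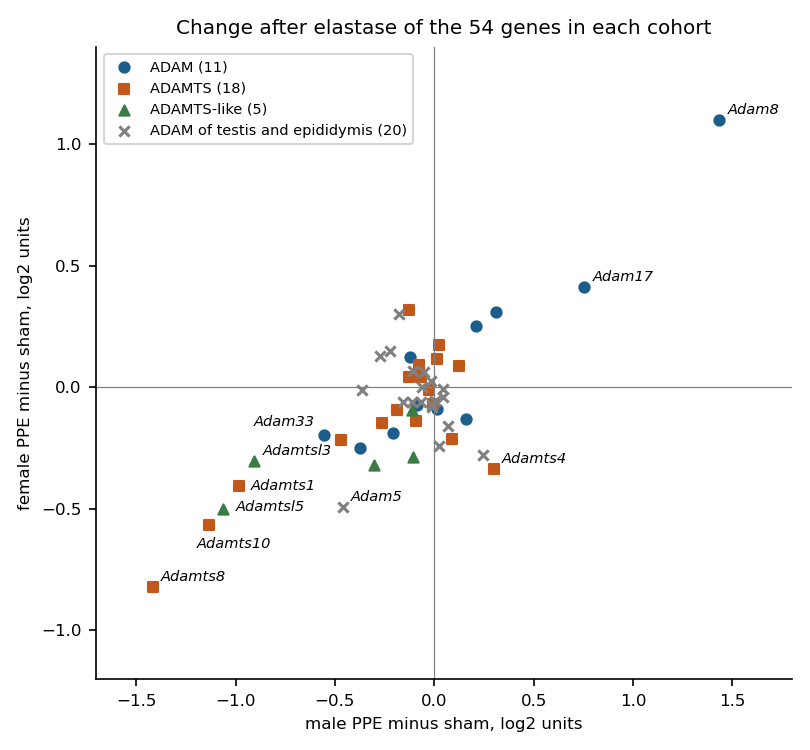
The change of each of the 54 genes in females (vertical axis) is plotted against its change in males (horizontal axis), PPE minus sham in log2 units, with the marker shape giving the family. Adam8 stands at the upper right, and Adamts8, Adamts10 and Adamtsl5 at the lower left, with female changes of -0.82, -0.57 and -0.50 against male changes of -1.42, -1.13 and -1.06.

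Genes known to act with the families were taken from lists of inhibitors, partners, substrates and related matrix genes. Of 7 inhibitors, 1 rose and 4 fell in males, and 1 fell in females. Of all genes 9.67% rose and 9.98% fell in males, and 1.45% fell in females. Timp4 fell by 1.27 log2 units in males and 0.89 in females (limma adjusted p = 4.08e-05 and 0.035). Reck, a membrane-bound metalloproteinase inhibitor, fell by 1.18 in males (limma adjusted p = 9.08e-05), with a female difference of -0.71 (0.099). Timp3, the main natural inhibitor of ADAM17 and of aggrecanases, fell by 0.47 in males (limma adjusted p = 0.0332) and Timp2 by 0.42 (0.0176). Timp1, which inhibits ADAM10 but not ADAM17, rose by 0.93 (limma adjusted p = 0.0129).

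Of 11 partners of ADAM10 and ADAM17, 4 rose and 2 fell in males, beside 9.67% and 9.98% of all genes. In females limma called 0 of them, and 6 had an unadjusted p under 0.05. Rhbdf2, encoding the iRhom that carries ADAM17 to the surface of leukocytes, rose by 0.64 ± 0.12 log2 units in males (limma adjusted p = 0.000519), while its paralogue Rhbdf1 fell by 0.54 ± 0.15 (0.0134). The tetraspanin partners of ADAM10 moved in both directions, with Tspan5 down by 0.74 and Tspan14 and Tspan33 up by 0.41 and 0.33. Frmd8, which stabilises the iRhom complex, rose by 0.27.

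Of 30 ADAM substrates 28 were measured, and 10 rose and 4 fell in males, beside 9.67% and 9.98% of all genes. The largest male rises were those of Tnf (1.91), Selplg (1.83), Cxcl16 (1.70), Csf1r (1.42), Tnfrsf1b (1.27) and Cd44 (1.19), several of them leukocyte genes. Smaller male rises were called for Il6ra (1.11), Icam1 (0.90), Nrg1 (0.90) and Notch2 (0.34). The 4 that fell were Hbegf (-0.71), Jag1 (-0.66), Notch3 (-0.56) and Kitl (-0.45), ligands and receptors known from vessel wall cells. In females 3 rose, Selplg (1.06), Icam1 (0.85) and Il6ra (0.92), beside 2.77% of all genes. Of the 28, 11 had an unadjusted limma p under 0.05 in females. Among these, without a call, were Tnf (0.94), Tnfrsf1b (0.98) and Cxcl16 (0.79) upward and Hbegf (-0.32) and Dll1 (-0.40) downward. Csf1r is also among the macrophage markers given above, and Notch3 among the pericyte markers. The part that shifts in cell type markers have in these changes was not tested.

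Of 17 ADAMTS substrates 16 were measured, with 1 higher and 2 lower in males, beside 9.67% and 9.98% of all genes. Thbs1 rose by 1.43 log2 units, Vwf fell by 0.86 and Fn1 fell by 0.21. Fn1 also fell in females, by 0.32, and was the only gene of that list called there. In females 5 of the 16 had an unadjusted limma p under 0.05. Vwf and Acan differed there by -0.905 and 1.057 without a call (limma adjusted p = 0.0734 and 0.252). The proteoglycan genes Vcan (0.32) and Acan (0.55) and the procollagen gene Col1a1 (-0.01) were not called in males. Of 12 related matrix genes 10 were measured, and 4 fell in males and 3 in females, with 0 higher in either. Beside these counts, 9.98% of all genes fell in males and 1.45% in females. Ltbp1 and Ltbp4, latent TGF-beta binding proteins of the microfibril, fell by 2.11 and 1.56 in males, and both fell in females (1.26 for Ltbp4). Thsd4, also known as ADAMTSL6, fell by 1.86 and 1.03. Pofut2, which fucosylates thrombospondin repeats so that ADAMTS proteins can be secreted, fell by 0.44 in males.

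**Figure D5:**
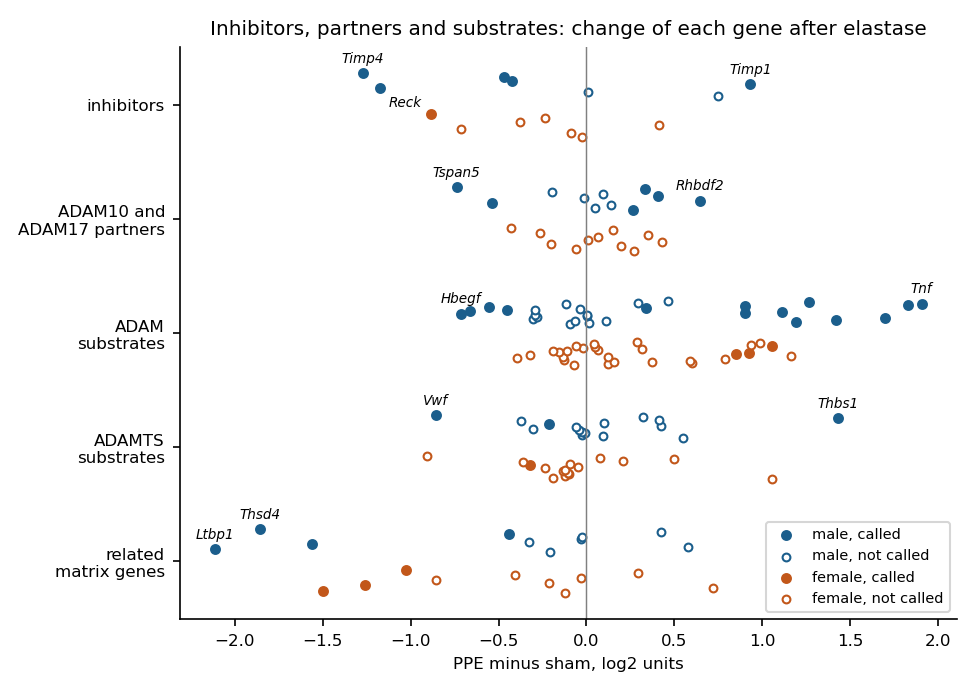
The change after elastase (PPE minus sham, log2 units) is plotted for each measured gene of 5 lists, males in blue and females in orange, with filled points for a limma adjusted p under 0.05. Ltbp1 and Thsd4 lie farthest to the left in males, at -2.11 and -1.86, and Tnf farthest to the right, at 1.91.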

How the data were processed

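The deposited values were log2 signals of 65956 probe sets on 19 arrays, 1 mouse per array. Per the submitters' processing notes they were made with the Transcriptome Analysis Console and mm10; the software version, the summarisation and any background step are not stated in those notes. Probe sets with exactly 1 gene symbol (30604) were kept, 813 symbols were updated through RefSeq GRCm38.p6, which also gave coordinates and promoters, and the brightest probe set stood for each of 30141 genes. A model of the 4 group means was fitted to the 19 arrays together (limma 3.58.1, lmFit and eBayes, under R 4.3.3) without further normalization or filter, and p-values were adjusted over all genes (Benjamini-Hochberg, threshold 0.05). The script was tested on simulated data. p-values measure the spread between mice. No pair of arrays shared more than 2.5% of its values. Members and gene lists were chosen with earlier results of these data known. Called members are named. Those that changed by at least 0.5 log2 units are given per array, except for the male PPE aortae, which are given by range and median. Of each other role group the member with the lowest p is named. Of the other lists, up to 6 called genes with the largest male change are named, and of the ADAM substrates all genes called in males. The 4 gene pairs were chosen after their values were seen. Tried alternatives were quantile normalization, median centring, a dim filter, array weights, a trended robust prior, the mean over probe sets, fits of 2 groups, a replicate block and leaving out arrays. The number of arrays, 3 to 7 per group, limits precision.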

Additional observations from a re-analysis of the deposited data

Results flagged for a closer look

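Single values of Adamts10 and Adamtsl4 stood apart from the others of their group, with a gap to the nearest array that exceeded Dixon's 95% critical value. Adamts10 read 12.22 log2 units in male sham 5, against 11.73 to 11.84 in the other 4 male sham aortae. Without that array the male fall of Adamts10 was -1.04 ± 0.10 log2 units (SE, limma adjusted p = 6.61e-06). Adamtsl4 read 8.58 in the same array, against 8.10 to 8.19 in the others, and without it the male fall was -0.21 ± 0.06 (limma adjusted p = 0.0247). In females Adamtsl4 read 8.10 in PPE 1, against 8.36 to 8.41 in the other 3 PPE aortae, and without it the female difference was -0.25 ± 0.10 (limma adjusted p = 0.307). Over all 54 genes, 9 of 162 groups of 4 or more arrays held such a value, 4 of them in male sham 5. Chance flags about 1 in 20 groups.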

How the results depend on the processing

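The calls of 7 genes in males, Adam8, Adam17, Adam33, Adamts8, Adamts10, Adamtsl3 and Adamtsl5, held in all 28 alternatives run, and no named difference changed sign while called. The count of called members in males stayed within 1.5 times of 10 (9 to 14 on leaving out 1 array). Called members in females numbered 2 as reported, 9 with array weights, 5 with quantile normalization, 8 without male sham 4 and 5 and male PPE 1, and 0 to 4 on leaving out 1 array. Members that differed in response numbered 0, against 2 with array weights and 1 with median centring. Of all genes, 5922 were called in males, 3535 with a replicate block and 4957 to 6358 on leaving out 1 array. In females 1273 were called, 3951 with array weights, 1970 in a fit of the female groups alone, 639 with a replicate block, 2454 without the 3 male arrays and 368 to 1613 on leaving out 1 array. In the difference of responses 163 were called, 931 with array weights, 318 with median centring, 0 with a replicate block, 79 without the 3 male arrays and 0 to 426 on leaving out 1 array. The cause of these shifts was not tested. The share of called genes that were higher was 49.2% in males (49.3% with quantile normalization, 59.9% with median centring) and 65.6% in females (47.6% and 54.6%). The replicate numbers gave no pairing: same-numbered sham and PPE arrays correlated at -0.321 to 0.24, and 1 of 8 sham arrays correlated best with its own number. With the replicate block 7 members were called in males, those named first here. In females it called 2, Adam8 and, in place of Adamts10 (limma adjusted p = 0.213), Adamts8 (0.0152). Leave-one-out fits of the pair differences were added after the data were seen. Signal near background limits 25 of the 54 genes, since only 29 lay above the receptor gene level of 6.365 log2 units on average. Adamts8 was among the 29, but its male PPE mean of 6.05 lay under that level, which was taken over male and female arrays together.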
